A study of Mus musculus with 6 samples.

Results

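The genes described here are 10 components of the LIF to STAT3 pathway of mouse embryonic stem (ES) cells, chosen by name: Lif, Lifr, Il6st, Jak1, Jak2, Stat3, Socs3, Pim1, Pim3 and Bcl3. All 10 were found by gene identifier among the 55401 genes of the count table, and all 10 were among the 17778 genes with enough reads to be tested. Messenger RNA was sequenced from 6 dishes of ES cells cultured for 7 days. The labels name 3 libraries as cells expressing 3XHA-Taf13, a triple HA-tagged form of the TFIID subunit TAF13, with no treatment. The other 3 are labelled KO and were grown with doxycycline, so the KO label and the drug always went together and their effects cannot be told apart. The sources used here do not give the parental line, the alleles of the chromosomal Taf13 gene, how the drug acts on the tagged gene, the number of clones, or whether the medium held LIF.

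Leukaemia inhibitory factor (LIF) is a cytokine of the interleukin-6 family that keeps mouse ES cells self-renewing. It binds the receptor chain LIFR together with the shared signalling chain gp130, the product of Il6st, and the JAK kinases bound to these chains phosphorylate the transcription factor STAT3. STAT3 then raises its target genes, among them Socs3, whose product blocks the receptor complex and so ends the signal. Activation of STAT3 is a change of the protein, which mRNA levels do not record.

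STAT3 binds DNA at a short palindromic pattern, TTCNNNGAA, in which N is any base. The fixed bases read the same on both strands, while the middle bases of a given site need not. The motif was searched in the RefSeq promoter windows of build GRCm38.p6, which run from 250 bases before to 50 bases after each annotated start, and which were given for all 10 genes. Of these, 1 gene, Socs3, held it, or 10.0%, against 9.55% of all 27025 genes with a window. Of 14 windowed genes in a list of 18 other LIF and STAT3 targets (described with their values further on), 3 held it: Icam1, Irf1 and Zfp36. The 3 stretches that lie outside annotated exons are shown because they hold the motif at genes measured here, with the motif in capitals.
Socs3 (chr11:117969502-117969530, minus strand): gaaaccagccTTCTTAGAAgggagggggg
Icam1 (chr9:21015888-21015916, plus strand): ggcgcgaggtTTCCCGGAAagtggccccg
Irf1 (chr11:53769914-53769942, plus strand): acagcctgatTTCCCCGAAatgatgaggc
The motif began 154 bases before the annotated start in Socs3, 42 before it in Icam1 and 90 before it in Irf1. The Socs3 stretch lies inside the span of the gene as GENCODE annotates it. Socs3 and Irf1 did not pass the test between the groups and Icam1 rose. A match describes letters only, and a window without one says nothing about STAT3 elsewhere at the gene.

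Levels are given in CPM, read counts scaled for library size by the TMM method, and differences as log2 fold changes of the libraries labelled KO against the expressing ones, each with its standard error (SE). A gene was called higher or lower when its p in edgeR's quasi-likelihood test, adjusted by the Benjamini-Hochberg method over all tested genes, was under 0.05. Library totals ran from 31219328 to 50328010 counts. Taf13 itself had 13.2 ± 1.02 CPM in the libraries labelled KO against 10.04 ± 2.21 CPM, so no decrease was seen (SD, n = 3; adjusted p = 0.0578, edgeR), and reads of the tagged and the chromosomal gene are not separated, so the directions below rest on the labels. Expressing replicate 1 stood apart from the other expressing libraries: over genes, which are not independent, its departure from the group mean followed their GC content (r = 0.53). It was kept. The labels give separate dishes but no separate starting cultures, so p-values measure the spread between these dishes.

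Of the 10 pathway genes, 2 rose (Lif and Jak2) and 2 fell (Stat3 and Bcl3) in the libraries labelled KO, while 6 did not pass the test (edgeR). That share equals the background, since 40.0% of all tested genes were called, 19.2% higher and 20.8% lower. Higher calls made up 48.1% of all calls, and 63.5% when libraries were scaled by their totals alone. The median log2 fold change of the 10 genes was -0.10, against -0.011 over all tested genes. The groups of 3 libraries did not overlap for 4 of the 10 genes, the same 4 that were called, against 53.5% of all tested genes. For 8 of the 10, the 95% interval excluded a change of 2-fold or more, against 73.1% of all tested genes. In bulk RNA, a change in the number of cells that express a gene and a change in RNA per cell cannot be told apart. The plot of levels by library shows the separation of Lif and Jak2 between the groups and the overlap of the receptor chains, Jak1, Socs3, Pim1 and Pim3.

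**Figure D1:**
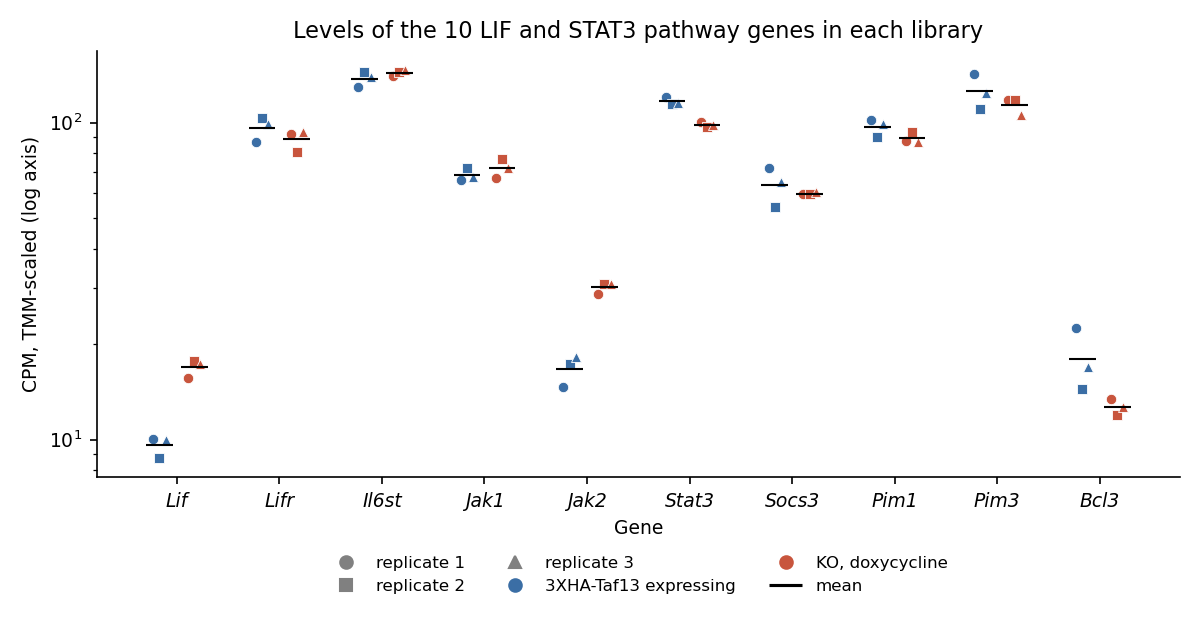
CPM of the 10 pathway genes in each of the 6 libraries (log axis, marker shape for the replicate number, black bars for group means). Lif and Jak2 lie higher in all 3 libraries labelled KO, Stat3 and Bcl3 lie lower, and the groups overlap for the other 6 genes.

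Among the ligand and receptor genes, only the ligand passed the test. Lif (ENSMUSG00000034394; chromosome 11, 4257557 to 4272514, plus strand, mm10), the secreted cytokine itself, was measured at 10.02, 8.77 and 9.96 CPM in expressing replicates 1, 2 and 3. It stood at 15.6, 17.7 and 17.4 CPM in KO replicates 1, 2 and 3. All 3 libraries labelled KO were above all 3 expressing libraries. The log2 fold change was 0.82 (SE 0.0945, adjusted p = 1.6e-04, edgeR), a 1.77-fold rise with a 95% interval from 0.61 to 1.04 on the log2 scale. The call held under each of the 14 other treatments of the counts that were run, with log2 fold changes from 0.76 to 0.91. Those treatments called other shares of all tested genes: 39.9% with DESeq2 size factors, 39.6% with library totals alone, 33.2% by DESeq2, 23.1% with no filter and 44.9% with a filter of 1 CPM. The share was 50.9%, 37.3% or 30.0% without expressing replicate 1, 2 or 3, and 29.7%, 28.8% or 28.8% without KO replicate 1, 2 or 3. It was 37.4% with a replicate block, 53.2% with the GC trend removed and 52.7% with both.

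Lifr (ENSMUSG00000054263; chromosome 15, 7090614 to 7197489, plus strand), the LIF-binding receptor chain, had 86.6, 103.5 and 99.1 CPM in the expressing libraries and 91.9, 81.1 and 93.3 CPM in those labelled KO. The groups overlapped, and the difference did not pass the test (log2 fold change -0.12, SE 0.0837, adjusted p = 0.283, edgeR). Without expressing replicate 1, which was the lowest of its group for this gene, Lifr was called lower at -0.16 (adjusted p = 0.0102, edgeR), and with the GC trend of each library removed at -0.15 (adjusted p = 0.0281, edgeR). Il6st (ENSMUSG00000021756; chromosome 13, 112464070 to 112510086, plus strand), the shared chain gp130, had 129.6, 144.2 and 139.3 CPM against 140.8, 144.1 and 146.5 CPM. These values overlapped, with a log2 fold change of 0.063 (SE 0.0598) and a 95% interval from -0.072 to 0.20.

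The pair of kinases differed in level and in change. Jak1 (ENSMUSG00000028530; chromosome 4, 101152367 to 101265282, minus strand), a tyrosine kinase bound to these receptors, had 65.8, 72.1 and 67.3 CPM in the expressing libraries and 67.1, 76.9 and 71.8 CPM in those labelled KO. These values overlapped (log2 fold change 0.072, SE 0.0709, adjusted p = 0.446, edgeR). Jak2 (ENSMUSG00000024789; chromosome 19, 29251828 to 29313080, plus strand), its relative, had 14.7, 17.3 and 18.2 CPM against 28.7, 30.9 and 31.02 CPM. No library labelled KO reached down to the expressing range, and Jak2 rose by 0.85 on the log2 scale (SE 0.0926, adjusted p = 1.17e-04, edgeR), or 1.80-fold. It was called higher under all 14 alternatives, from 0.80 to 0.94. An exon of Jak1 overlaps an exon of Raver2 on the opposite strand, and because the strand setting of the counting is not given, the Jak1 value is uncertain to that extent. Raver2 had 920 to 1515 counts per library against 2056 to 3705 for Jak1, and it fell by 0.33 (adjusted p = 0.00602, edgeR).

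Stat3 (ENSMUSG00000004040; chromosome 11, 100885098 to 100939540, minus strand), the transcription factor of the pathway and a target of its own product, had 120.8, 114.6 and 115.01 CPM in the expressing libraries. It had 100.7, 96.9 and 98.4 CPM in the libraries labelled KO, all below the expressing range. The fall was small, with a log2 fold change of -0.24 (SE 0.0555, adjusted p = 0.00706, edgeR) and a 95% interval from -0.37 to -0.12. The call was lost when libraries were scaled by their totals alone (-0.15, adjusted p = 0.0724, edgeR), under which the median over all genes went from -0.011 to 0.079. Stat3 shares exon bases with Stat5a on the opposite strand, a gene with 26 to 96 counts per library against 3515 to 5081 for Stat3.

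Of the 4 target genes in the set, Bcl3 passed the test and Socs3, Pim1 and Pim3 did not, and their 95% intervals overlapped that of Bcl3. Differences between these changes were not tested. Socs3 (ENSMUSG00000053113; chromosome 11, 117966079 to 117970047, minus strand), the feedback inhibitor whose promoter motif is shown above, had 72.05, 54.2 and 64.8 CPM in the expressing libraries. In the libraries labelled KO it had 59.5, 59.4 and 60.3 CPM, inside the expressing range. The difference did not pass (log2 fold change -0.091, SE 0.0957, adjusted p = 0.478, edgeR), and the 95% interval ran from -0.31 to 0.12. Its sign turned without expressing replicate 1 (0.036, adjusted p = 0.627, edgeR) and with the GC trend removed (0.028, adjusted p = 0.671, edgeR).

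Pim1 and Pim3 encode serine/threonine kinases that favour survival and growth. Pim1 (ENSMUSG00000024014; chromosome 17, 29490753 to 29496112, plus strand) had 102.2, 90.1 and 98.7 CPM against 87.7, 93.4 and 86.9 CPM, and Pim3 (ENSMUSG00000035828; chromosome 15, 88862186 to 88865726, plus strand) had 142.3, 110.6 and 124.3 CPM against 118.2, 118.0 and 105.8 CPM. The groups overlapped for both genes. Their log2 fold changes were -0.12 (SE 0.0669, adjusted p = 0.186, edgeR) and -0.14 (SE 0.0924, adjusted p = 0.251, edgeR), with 95% intervals from -0.27 to 0.031 and from -0.35 to 0.066. Gm26885, annotated over Pim1 exons on the opposite strand and named after its values were seen, rose from 1.57, 1.74 and 1.97 CPM to 4.58, 4.50 and 4.202 CPM (log2 fold change 1.32). Its counts, 49 to 217 per library, are small beside the 3061 to 4487 of Pim1.

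Bcl3 (ENSMUSG00000053175; chromosome 7, 19808462 to 19822770, minus strand), an atypical IkappaB protein that acts in the nucleus, had 22.4, 14.4 and 16.98 CPM in the expressing libraries and 13.4, 12.0 and 12.7 CPM in those labelled KO. The gap between the groups was narrow and expressing replicate 1 was the highest library. Bcl3 fell by 0.49 on the log2 scale (SE 0.147, adjusted p = 0.0242, edgeR), with a 95% interval from -0.83 to -0.16. With expressing replicate 1 left out, Bcl3 was at -0.28 and still called (adjusted p = 0.0075, edgeR). It was not called in the absence of expressing replicate 3 (adjusted p = 0.0541), or of KO replicate 1 (0.0537), 2 (0.0896) or 3 (0.0766, all by edgeR). Nor was it called with library totals alone (-0.41, adjusted p = 0.0659, edgeR). In each of these fits 2 pathway genes were lower at an unadjusted p under 0.05. With any of those replicates left out, the share of all genes called was also lower, from 28.8% to 30.0%. Gm16175, annotated over Bcl3 exons on the opposite strand, had 0 counts in all 6 libraries.

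The spread within the expressing group followed base composition. The 4 genes with the lowest GC content, Jak2 (44.2%), Lifr (46.9%), Il6st (48.5%) and Jak1 (49.7%), had their lowest expressing value in replicate 1. The other 6, from Stat3 (52.5%) to Pim3 (61.0%), had their highest there. The plot of fold changes under different treatments of the counts shows that Lif and Jak2 stayed far from 0 under each treatment plotted, while Socs3, Pim1 and Pim3 moved to between -0.065 and 0.036 when that library or the GC trend was removed.

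**Figure D2:**
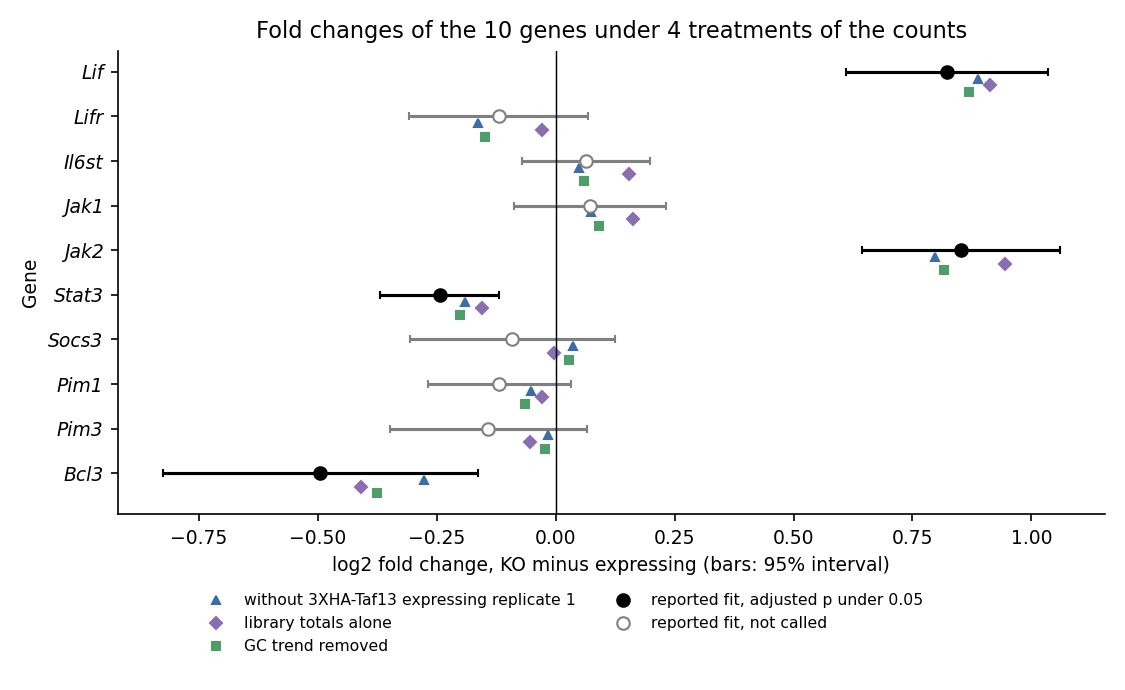
log2 fold changes of the 10 genes, with 95% intervals for the reported fit (filled where called) and the value without expressing replicate 1, with library totals alone and with the GC trend removed. Lif and Jak2 lie between 0.80 and 0.94 in all 4, Stat3 and Bcl3 stay below 0, and Socs3 lies on both sides of 0.

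Per kilobase of annotated exon, the scale on which genes can be compared with each other, Pim3 was the most abundant of the 10 (51.8 ± 6.55 CPM per kb in the expressing libraries, SD, n = 3). Pim1 (28.9 ± 1.84) and Socs3 (22.0 ± 3.11) followed, and each of these 3 was separated from its neighbour in the order. Il6st (12.4 ± 0.670) and Stat3 (12.3 ± 0.363) overlapped, as did Jak1 (9.46 ± 0.454) and Lifr (8.95 ± 0.811), and Lifr with Bcl3 (7.25 ± 1.66). Jak2 (3.32 ± 0.366) and Lif (2.203 ± 0.162) were the lowest. In the libraries labelled KO the order was the same except that Jak2 (6.01 ± 0.261) passed Bcl3 (5.13 ± 0.286), and their ranges did not overlap. There Stat3 and Jak1 were the neighbours that overlapped. Lif remained the least abundant at 3.89 ± 0.261 CPM per kb.

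Ratios of 2 genes within a library do not depend on how libraries are scaled. For counts of Jak2 to Jak1 the log2 ratio was -2.17, -2.06 and -1.88 among expressing libraries. It was -1.22, -1.31 and -1.21 among those labelled KO, higher in all 3 by 0.79 on average (2-sided exact permutation p = 0.1, the smallest that 3 against 3 can give, adjusted p = 0.15 over 6 ratios). Lifr to Il6st was -0.58, -0.48 and -0.49 against -0.62, -0.83 and -0.65, lower in all 3 by 0.18 (exact permutation p = 0.1, adjusted p = 0.15). Both pairs of groups were separated, the second by a narrow gap. Socs3 to Stat3 overlapped at -0.88 ± 0.175 and -0.72 ± 0.0297 (SD, n = 3; exact permutation p = 0.2, adjusted p = 0.24), as did Pim1 to Pim3 at -0.37 ± 0.0966 and -0.35 ± 0.0738 (exact permutation p = 0.7). The 6 adjusted together include 2 ratios of Pim2, given below, that were chosen after their values were seen (exact permutation p = 0.1 each). Their inclusion lowered the adjusted p printed here for the ratios fixed beforehand. With 1 library left out, the difference for Socs3 to Stat3 went from 0.16 to 0.062 (without expressing replicate 2) and that for Lifr to Il6st from -0.18 to -0.12 (without KO replicate 2).

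Pim2, the remaining PIM kinase gene, differed from its relatives. It had 331.6, 289.4 and 307.7 CPM in the expressing libraries and 150.4, 145.7 and 148.7 CPM in those labelled KO, a fall of 1.06 on the log2 scale (SE 0.0632, adjusted p = 4.11e-06, edgeR). The log2 ratios of Pim2 to Pim1 and of Pim2 to Pim3, chosen after the values of these genes were seen, fell by 0.94 and by 0.92, with separated groups (exact permutation p = 0.1 for each, adjusted p = 0.15).

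**Figure D3:**
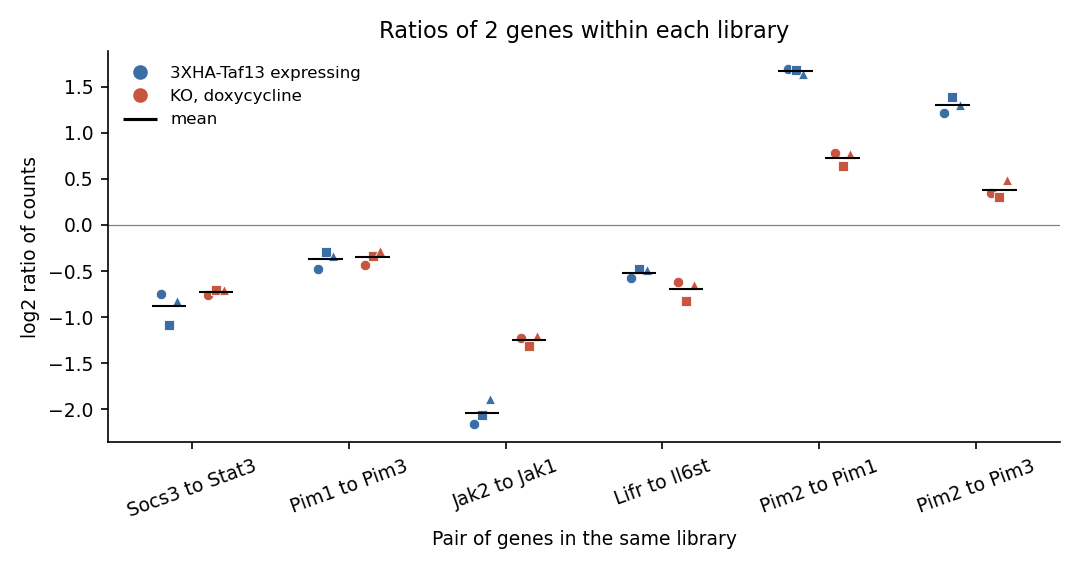
log2 ratios of the counts of 2 genes in the same library, for the 6 pairs (blue for expressing, red for the libraries labelled KO, marker shape for the replicate number, black bars for means). Jak2 to Jak1 is higher and both Pim2 ratios are lower in every library labelled KO, while Socs3 to Stat3 and Pim1 to Pim3 overlap.

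Beyond Socs3, Pim1, Pim3 and Bcl3, a list of 18 further genes known to respond to LIF or STAT3 gave 9 that fell and 3 that rose, with 6 not called (edgeR). That is 66.7% called, against 40.0% of all tested genes, with a median log2 fold change of -0.37 against -0.011. The directions of several of these genes were known when the list was made, so the list gives no independent evidence of a direction. The transcription factor genes Klf4 and Tfcp2l1, which sustain the naive state downstream of STAT3, fell from 64.5 ± 2.80 to 28.2 ± 3.57 CPM (mean ± SD of 3 libraries), at a log2 fold change of -1.19 (SE 0.0948) and from 136.8 ± 4.69 to 64.0 ± 4.33 CPM (-1.10, SE 0.0674). Klf5 fell by 0.62 (SE 0.0879) and Myc by 0.48 (SE 0.0813). Pramel7, a naive-state gene, fell by 3.58 (SE 0.245) from 73, 107 and 107 counts to 5, 9 and 14.

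The survival genes of that list moved in opposite directions. Mcl1, an anti-apoptotic BCL2 relative, fell from 990 ± 108 to 740.0 ± 12.9 CPM (mean ± SD of 3 libraries), at a log2 fold change of -0.42 (SE 0.077). Bcl2l1, which encodes BCL-X, rose from 43.8 ± 3.05 to 60.2 ± 4.08 CPM (0.46, SE 0.0784). Cebpb (-1.04, SE 0.278), a transcription factor gene of the interleukin-6 response, and Vegfa (-0.40, SE 0.112), a vascular growth factor gene, also fell, while Ier3 (0.42, SE 0.123), an early response gene, and the adhesion molecule gene Icam1 (0.25, SE 0.0764) rose. The 3 increases became 1 without either expressing replicate 2 or 3, and without either KO replicate 1 or 2, Bcl2l1 alone remaining. In each of these fits 3 genes of the list were higher at an unadjusted p under 0.05 (edgeR). The share of all tested genes called was 28.8% to 37.3% there, against 40.0% in the reported fit. Cebpb did not pass in the absence of expressing replicate 3 (adjusted p = 0.0625, edgeR) or KO replicate 2 (0.0583). Vegfa did not pass in the absence of expressing replicate 3 (0.069), or of KO replicate 1 (0.0642) or 3 (0.0832), nor with library totals alone (0.0517, edgeR).

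Of the 9 genes of the list that fell, 7 had a promoter window, and 0 of these 7 held TTCNNNGAA. The motif was in 1 of the 3 that rose and in 2 of 4 windowed genes that were not called. Among all genes with a window 9.55% held it. These counts are too small to tell the calls apart, or any of them from that share. The plot of target genes places Socs3, Pim1 and Pim3 among the genes whose intervals include 0, beside Gbx2, Irf1, Ccnd1, Junb, Zfp36 and Cebpd, which were named after their values were seen.

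**Figure D4:**
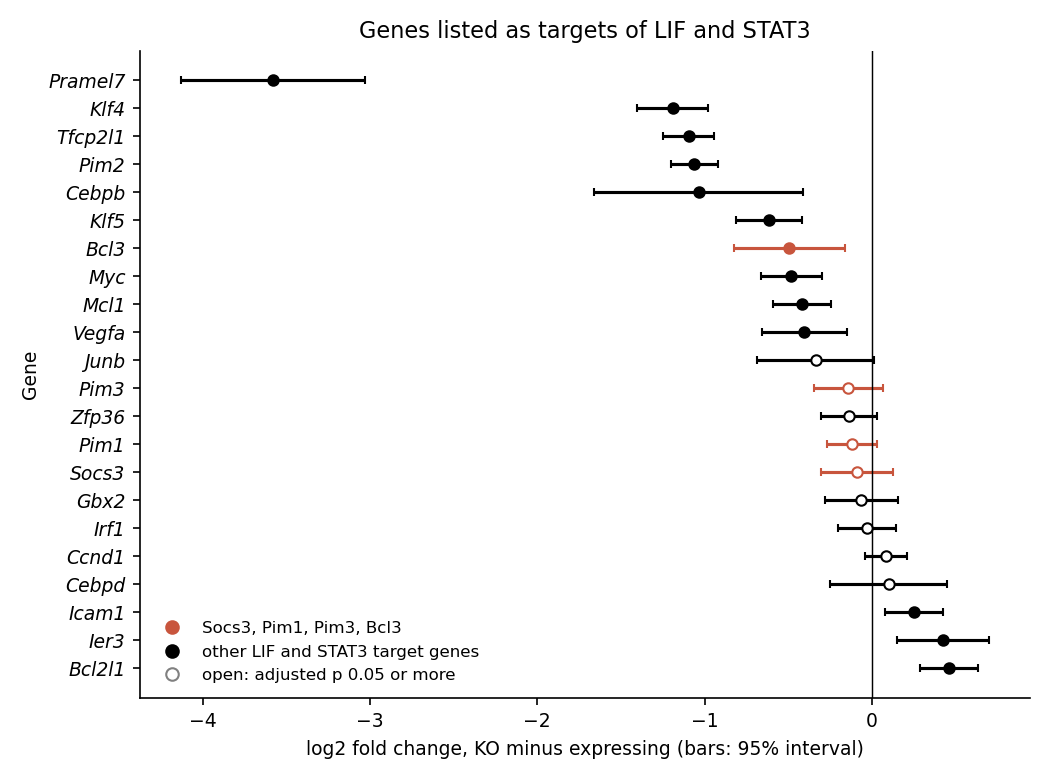
log2 fold changes with 95% intervals for Socs3, Pim1, Pim3 and Bcl3 (red) and 18 other genes listed as LIF or STAT3 targets (black), filled where the adjusted p was under 0.05. Pramel7, Klf4, Tfcp2l1, Pim2 and Cebpb lie below -1, and the intervals of Socs3, Pim1 and Pim3 include 0.

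Of 14 other genes for the interleukin-6 family and its receptors 11 were tested, 2 rose and 0 fell (edgeR), which is 18.2% called against 40.0% of all tested genes. None was lower at an unadjusted p under 0.05 either, and DESeq2 gave 0 lower (1 unadjusted). Their median log2 fold change was 0.088. Osmr, the oncostatin M receptor chain that pairs with gp130, rose from 1.497 ± 0.194 to 3.88 ± 0.842 CPM (mean ± SD of 3 libraries), at a log2 fold change of 1.38 (SE 0.193, adjusted p = 4.86e-04, edgeR). Il6ra, the interleukin-6 receptor chain, rose by 0.54 (SE 0.129). The cytokine gene Il11 (0.51, SE 0.236) and the ciliary neurotrophic factor receptor gene Cntfr (-0.098, SE 0.115) did not pass. Il11 was at 0.32 without expressing replicate 2, and Cntfr at 0.038 without expressing replicate 1. Il27, Ctf2 and Osm had too few reads to be tested. Of these, Osm alone had separated groups, with 6, 10 and 6 counts in the expressing libraries against 1, 2 and 3, printed after these values were seen. Exons of Il6ra, and of Cebpb, Icam1, Gab1, Ptpn6 and Nfkb2, share bases with opposite-strand genes, and those of Tfcp2l1 one on the same strand, so these values are uncertain to that extent.

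Of the 8 other JAK and STAT genes, 1 rose and 2 fell, with a median of -0.10 (edgeR). The share called, 37.5%, was near the 40.0% of all tested genes. Stat4 fell from 7.25 ± 0.0489 to 3.83 ± 0.133 CPM (mean ± SD of 3 libraries), at a log2 fold change of -0.92 (SE 0.1, adjusted p = 1.17e-04, edgeR) and Stat6, the transcription factor of interleukin-4 signalling, by 0.49 (SE 0.0779). Stat5a was at 0.74 (SE 0.272, adjusted p = 0.0553, edgeR). The increases numbered 3 without expressing replicate 1, and 0 without KO replicate 2 (1 at an unadjusted p under 0.05). Stat5a passed without expressing replicate 1 (1.01, adjusted p = 0.00119) or KO replicate 1 (0.91, adjusted p = 0.0329, edgeR). Stat6 overlaps Nab2 on the opposite strand, and Stat4 shares exon bases with Gm28177 on the same strand, so these values are uncertain to that extent. The Stat5a value is uncertain too, since it had 26 to 96 counts per library and shares exon bases with Stat3 (3515 to 5081) on the opposite strand.

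Of 15 genes for inhibitors of JAK and STAT signalling, 1 rose and 2 fell, with a median of -0.020 (edgeR), or 20% called against 40.0% of all tested genes. The 95% intervals of all 15 lay within 2-fold, against 73.1% of all tested genes. Socs5, a relative of Socs3, rose from 25.1 ± 1.67 to 34.8 ± 0.429 CPM (mean ± SD of 3 libraries), at a log2 fold change of 0.47 (SE 0.0733). Pias4, which encodes a SUMO ligase, fell by 0.44 (SE 0.126), and the phosphatase gene Ptpn2 by 0.18 (SE 0.0649, adjusted p = 0.0492, edgeR). Ptpn6, another phosphatase gene, did not pass (-0.33, SE 0.138). It was called under 4 of the 14 alternatives, among them without expressing replicate 2 (-0.44, adjusted p = 0.0264, edgeR), and was at -0.14 without expressing replicate 1. Leaving out expressing replicate 3, or either KO replicate 2 or 3, left 0 decreases called (1, 1 and 2 at an unadjusted p under 0.05), and leaving out KO replicate 1 left 1. In these fits the share of all genes called was also lower (28.8% to 30.0%), and the log2 fold changes stayed below 0, from -0.50 to -0.39 for Pias4 and from -0.20 to -0.13 for Ptpn2. Pias4 was at -0.26 without expressing replicate 1 and still called (adjusted p = 0.00374, edgeR), and its call was also lost with library totals alone. Without expressing replicate 1, 2 were higher and 3 lower. Ptpn2 lost its call under 11 of the 14 alternatives, DESeq2 among them (adjusted p = 0.0801).

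LIF also signals through ERK and PI3-kinase. Of 17 genes of these branches 4 rose and 4 fell, with a median of 0.011 (edgeR), or 47.1% called against 40.0% of all tested genes. Gab1, an adaptor of receptor signalling, fell from 344.0 ± 12.1 to 209.5 ± 7.44 CPM (mean ± SD of 3 libraries), at a log2 fold change of -0.72 (SE 0.0563). Mapk3, which encodes ERK1, fell by 0.77 (SE 0.0743) and Pik3cd, a catalytic subunit of PI3-kinase, by 0.83 (SE 0.151), while Sos2, an exchange factor for RAS, rose by 0.51 (SE 0.0858). Increases numbered 6 without expressing replicate 1. They numbered 2 when expressing replicate 3, or either KO replicate 2 or 3, was left out, and 1 in the absence of KO replicate 1. Where 2 were called, 4 genes of the list were higher at an unadjusted p under 0.05, as in the reported fit (edgeR). Where 1 was called, 3 were. The share of all tested genes called was also lower in these fits, from 28.8% to 30.0%, and it was 50.9% in the fit with 6 increases.

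Of 9 NF-kappaB and IkappaB relatives of Bcl3, 2 rose and 1 fell, with a median of 0.13 (edgeR), or 33.3% called, near the 40.0% of all tested genes. Nfkbie rose by 0.67 (SE 0.121) and Nfkb2, the precursor of a DNA-binding partner of BCL3, by 0.37 (SE 0.108). Nfkbia, a cytoplasmic inhibitor, fell by 0.27 (SE 0.0804), and Rela was at 0.24 (SE 0.0987, adjusted p = 0.0756, edgeR), or 0.37 and called without expressing replicate 1. Leaving out expressing replicate 1 gave 4 higher and 2 lower. Without expressing replicate 3 or any 1 of the 3 libraries labelled KO, 1 was higher, and without expressing replicate 2 or any 1 of those labelled KO, 0 were lower (2 and 1 at an unadjusted p under 0.05). The plot of 7 lists shows the medians of all but the target list between -0.10 and 0.13.

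**Figure D5:**
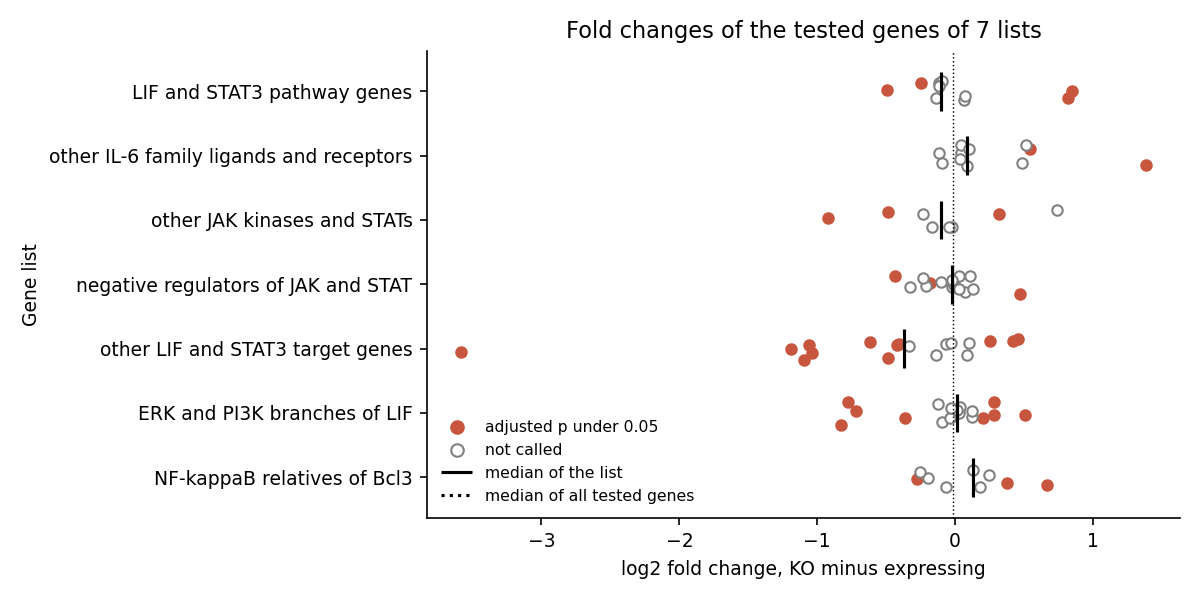
log2 fold changes of the tested genes of the pathway set and 6 related lists (filled where called, black bars for list medians, dotted line for the median of all tested genes, -0.011). The target list has its median at -0.37 and Pramel7 at -3.58, and the genes of the other lists lie on both sides of 0.

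Markers of other cell states were read beside these genes. Of 14 primitive endoderm markers, 14 rose, and their summed level went from 387.5 to 467 CPM in the expressing libraries to 1070 to 1093 CPM in those labelled KO, led by Lamb1, Col4a1 and Lama1. Of 10 pluripotency markers 9 fell (edgeR; Pou5f1, Tdgf1 and Dppa5a the most abundant), with sums from 3772 to 3948 CPM and from 2554 to 2557 CPM. Of 13 tested fibroblast markers 4 rose and 1 fell, or 38.5%, near the 40.0% of all tested genes. Their sum was 122 to 149 CPM in the expressing libraries and 112 and 114 CPM in KO replicates 1 and 3, but 207 CPM in KO replicate 2, with Col1a1, Col1a2 and Col3a1 leading. Of 8 tested trophectoderm markers 2 rose and 5 fell, or 87.5% called against 40.0% of all tested genes. Their sums overlapped (201 to 250 and 203 to 214 CPM), led by Krt18, Krt8 and Eomes. Krt18 rose by 0.34 on the log2 scale and Krt8 fell by 0.45, so the overlap of the sums does not describe the single genes. No marker of these 4 lists was at 0 in all libraries. Without KO replicate 2 the log2 fold change of Lif was 0.79 and that of Jak2 0.84, both called (edgeR, adjusted p = 0.00169 and 0.00132). In that fit Stat3 was still called lower and Bcl3 was not called (edgeR, adjusted p = 0.0896). The part of these markers' cell states in the changes of Lif, Jak2, Stat3 and Bcl3 was not tested.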

How the data were processed

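The authors deposited a table of whole-number read counts per Ensembl gene, 55401 genes in 6 library columns, not normalized. Per the labels' protocols, a stranded kit selecting poly(A) RNA was used on 800 ng of input, with 12 PCR cycles. The tools in the submitters' processing notes are HTSeq 0.6.1p1, STAR 2.5.3a, cutadapt 1.10 and bcl2fastq 2.20.0.422, with build mm10. The sources used here do not give their settings, strand option or annotation. Symbols, positions, exon lengths and GC content were taken by identifier from GENCODE M21 of the same build, which named 55141 genes. Groups came from sample titles.

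The tests used edgeR 4.0.16 (R 4.3.3): filterByExpr (minimum count 10, total 15), TMM scaling, glmQLFit (robust) and glmQLFTest with the group as the only term, over all 17778 tested genes. The common biological coefficient of variation was 9.05%. Intervals at 95% were derived from the test statistic. A count of 3 corresponds to 0.0581 to 0.0961 CPM. Ratios used counts plus 0.5. The steps were tested on simulated counts. No 2 replicates were copies of 1 library (chi-square over its degrees of freedom 3.49 to 37.9 for pairs). PCR copies were not told apart.

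The members and lists were chosen with earlier results of these data known. All 10 pathway genes are named, and of each related list the up to 4 genes of at least 1 CPM on average with the smallest p, besides all called targets. The values of 1 gene of these lists are not reported here. Of each marker list the 3 most abundant genes are named. Alternatives were other size factors (DESeq2 1.42.0), library totals, DESeq2's own test, other filters, each replicate left out, a replicate block and a GC trend removed per library.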

Additional observations from a re-analysis of the deposited data

How the results depend on the processing

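Lif and Jak2 were higher under all 14 alternatives, so the count of pathway genes higher stayed at 2, while the count lower went from 2 to 0 with library totals alone (2 at an unadjusted p under 0.05) and ranged from 1 to 3 with a replicate left out. Removing the GC trend also gave 3 lower, Lifr being added. Socs3 turned to 0.028 with the GC trend removed and 0.027 with the replicate block as well, and ranged from -0.20 to 0.036 with a replicate left out. Cntfr turned to 0.012 and 0.010, and ranged from -0.22 to 0.038. The cause was not tested.

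Among the related lists, library totals gave 2 other JAK and STAT genes higher, 0 inhibitors lower (1 unadjusted), and 4 NF-kappaB relatives higher with 0 lower (0 unadjusted). Removing the GC trend raised the share of all tested genes called from 40.0% to 53.2%. With it removed, 2 JAK and STAT genes, 2 inhibitors and 4 NF-kappaB relatives were higher and 4 inhibitors and 2 NF-kappaB relatives lower. The replicate block with the GC trend removed, at 52.7% of all tested genes, gave the same counts apart from 3 inhibitors lower. Without a filter 1 interleukin-6 family gene was lower and 2 JAK and STAT genes higher. DESeq2, DESeq2 size factors, genes of at least 1 CPM and the replicate block each gave 1 inhibitor lower.

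With 1 replicate left out, the ranges were 2541 to 4852 higher and 2628 to 4589 lower for all genes, 0 to 3 higher for other JAK and STAT genes, 1 to 2 higher and 0 to 3 lower for inhibitors, 1 to 3 higher and 7 to 10 lower for targets, 1 to 6 higher for ERK and PI3-kinase genes, and 1 to 4 higher and 0 to 2 lower for NF-kappaB relatives. Where this leaves 2 libraries in a group, they are assumed to vary like the other group. With a replicate left out, the ratio differences ranged from 0.062 to 0.23 for Socs3 to Stat3, -0.037 to 0.058 for Pim1 to Pim3, 0.72 to 0.86 for Jak2 to Jak1 and -0.22 to -0.12 for Lifr to Il6st. The 2 Pim2 ratios were not recomputed.

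Deviations of same-numbered libraries correlated at 0.018, -0.031 and 0.034, and those of other pairs from -0.071 to 0.057. Not every library correlated best with its own number, so no sign of pairing by number was seen. With 3 libraries per group, and expressing replicate 1 apart by GC content, these values cannot show whether the dishes were paired. The replicate block called 3243 genes higher and 3401 lower against 3422 and 3695, and left the same 4 pathway genes called. Depth limits Il27, Ctf2 and Osm, which were not tested.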
